A study of Mus musculus with 8 samples.

Results

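Complement is a cascade of plasma proteins that tag, inflame and lyse targets. Its transcripts were followed here through 9 genes, chosen by name with earlier results of these data known. They were the C1q subunit genes C1qa, C1qb and C1qc, the cascade protein genes C3, C4b and Cfb, the receptor genes C3ar1 and C5ar1, and the inhibitor gene Serping1. All 9 were found among the 18251 genes of the count table, each as a single row. Bulk mRNA was sequenced from 8 subcutaneous tumours grown in 7-week-old male C57 mice from MC38 cells, a mouse colon cancer line, of the genotype TetOn-CXCL14. Every tumour of both groups carried this construct, which switches on the chemokine CXCL14 when doxycycline (DOX) is given. The 4 control tumours were left untreated, and the 4 DOX-induced tumours came from mice given 1 mg/mL DOX in their drinking water over 3 days. The stated question was the role of CXCL14 in the microenvironment of a tumour. Each group held 4 animals, and p-values therefore rest on animal-to-animal spread. No group received DOX without the construct here, and what DOX does by itself cannot be told apart from what CXCL14 does. Tumour volume is given as 300 mm3 both for the start of DOX and for harvest, and the sources used here do not say whether the cells were 1 clone or a mixed pool.

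The classical pathway starts when C1q, built from the products of C1qa, C1qb and C1qc, binds antibody or dying cells, and it runs through C4 to C3. The alternative pathway needs no antibody: factor B, the product of Cfb, joins activated C3 to form the enzyme that cleaves more C3. Peptides released from C3 and C5 act on myeloid cells through the receptors C3AR1 and C5AR1, and C1 inhibitor, the product of Serping1, blocks the proteases that follow C1q. In tumours C1q is made largely by macrophages, whereas C3, factor B and C1 inhibitor can also come from fibroblasts, endothelium and tumour cells and are induced by inflammatory cytokines.

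The 3 C1q genes lie next to each other on chromosome 4 of GRCm38.p6, in the order C1qb (136880126 to 136886200), C1qc (136889801 to 136892936) and C1qa (136895916 to 136898844), with 3600 and 2979 bases between neighbours. Cfb lies on chromosome 17 (34856374 to 34862514), and C2, which encodes the protease that pairs with C4, follows after 87 bases. C4b (34728139 to 34743902) and C3 (57203967 to 57228136) are on the same chromosome. C3ar1 is on chromosome 6 (122847140 to 122856157), C5ar1 on chromosome 7 (16246743 to 16259540) and Serping1 on chromosome 2 (84765360 to 84775444). Promoter sequence from RefSeq was at hand for 5 of the 9 genes, C1qb, C1qc, C3, C3ar1 and C5ar1. Those of the neighbours C1qb and C1qc, and that of C3, the member with the largest difference between groups, are shown from 250 bases before to 30 bases after the annotated start, in GRCm38.p6 on the minus strand at chr4:136886171-136886450, chr4:136892885-136893164 and chr17:57228107-57228386. Capitals mark matches to any of the 7 motifs searched.
C1qb: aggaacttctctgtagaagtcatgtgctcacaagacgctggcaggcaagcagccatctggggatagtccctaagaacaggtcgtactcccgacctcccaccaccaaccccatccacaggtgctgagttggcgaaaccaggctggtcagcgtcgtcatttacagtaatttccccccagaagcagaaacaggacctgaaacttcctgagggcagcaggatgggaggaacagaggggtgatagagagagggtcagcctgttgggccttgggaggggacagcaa
C1qc: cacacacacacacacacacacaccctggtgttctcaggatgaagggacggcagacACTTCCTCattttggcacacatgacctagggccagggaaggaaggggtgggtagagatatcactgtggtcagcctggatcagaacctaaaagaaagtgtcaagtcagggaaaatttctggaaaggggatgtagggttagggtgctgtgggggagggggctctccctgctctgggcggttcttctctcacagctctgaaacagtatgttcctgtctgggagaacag
C3: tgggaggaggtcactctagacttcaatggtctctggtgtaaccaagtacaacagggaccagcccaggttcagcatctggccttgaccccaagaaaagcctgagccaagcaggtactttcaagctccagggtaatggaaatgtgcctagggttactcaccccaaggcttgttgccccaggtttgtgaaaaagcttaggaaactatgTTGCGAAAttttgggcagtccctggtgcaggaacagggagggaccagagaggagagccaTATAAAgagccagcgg

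The motifs, searched on both strands, were the interferon-gamma element TTCNNNGAA, PU.1 as GAGGAAGT, C/EBP as TTNNGCAA, the TATA box as TATAAA, the core of the interferon-stimulated element, the joint element of PU.1 and an interferon regulatory factor, and NF-kB. Positions count from the annotated start, with negative values before it. In the C3 window a C/EBP match lay at -45 to -38 on the opposite strand, and a TATAAA lay at 15 to 20. C/EBP matches were present in 10.4% and TATAAA in 13.1% of 32541 promoter windows of this length. A PU.1 match lay at -195 to -188 on the opposite strand of the C1qc window, and 2.83% of all windows held one. The windows of C1qb and C5ar1 held no match, and that of C3ar1 held a TATAAA at -235 to -230. No match to the interferon-gamma element (7.86% of all windows), the interferon-stimulated core (3.28%), the joint PU.1 element (2.56%) or the NF-kB element (0.393%) was found in the 5 windows, which says nothing of sequence outside them.

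Per tumour, between 18685975 and 19307481 counts were assigned to genes. The induced gene Cxcl14 stood at 8.30 to 9.69 CPM (counts scaled to library size) in controls and at 30.1, 30.2, 20.3 and 15.8 CPM in DOX tumours 1 to 4, so the libraries matched their labels in direction. On the first principal component of all tested genes, DOX tumour 1 (-10.5) lay among the controls (-27.3 to -9.35), and the other DOX tumours lay between 14.9 and 43.1. Of the epithelial markers expected in a colon cancer line, Epcam, Krt8, Krt18, Cldn4 and Cldn7 were below 1 CPM in every tumour. Another 2 genes of that list were detected and tested. The list summed to 7.31 to 22.2 CPM in controls and 9.32 to 10.8 CPM in DOX tumours. In edgeR's quasi-likelihood test over 13436 genes, 0.00744% of genes passed a Benjamini-Hochberg adjusted p of 0.05, a single gene, Adgrg1, that is no complement gene. Without adjustment 7.65% had p below 0.05 with the higher level in DOX tumours and 3.95% with the lower level.

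Against this background all 9 complement genes had the higher mean in DOX tumours and 0 of 9 passed the adjusted threshold of edgeR. Their unadjusted edgeR p was below 0.05 in 9 of 9, where 7.65% of all tested genes were in that direction. The DOX tumours lay above every control tumour in 6 of 9 members, C1qa, C1qb, C1qc, C3, C4b and Cfb, compared with 3.23% of all tested genes, and 2.43% of all tested genes had the DOX tumours below every control. DESeq2, run as an alternative, put these same 6 genes past its adjusted threshold of 0.05, compared with 0.468% of all genes on the higher side. That count depended on single tumours, as did the share of all genes called on the higher side, given in brackets. DESeq2 called 0 members without control tumour 1 (0.53%) or control tumour 2 (0.151%), and 1 without DOX tumour 2 (0.0704%). It called 2 without control tumour 4 (0.178%) and 4 without control tumour 3 (0.385%). Another 5 were called without DOX tumour 3 (0.194%) or DOX tumour 4 (0.212%), and 9 without DOX tumour 1 (4.19%). The median log2 fold change was 0.73 over the members and -0.01 over all tested genes. The 9 genes were chosen with earlier results of these data known, so these comparisons with all genes are descriptive. In bulk tumour RNA, more cells of a type and more RNA per cell cannot be told apart.

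**Figure D1:**
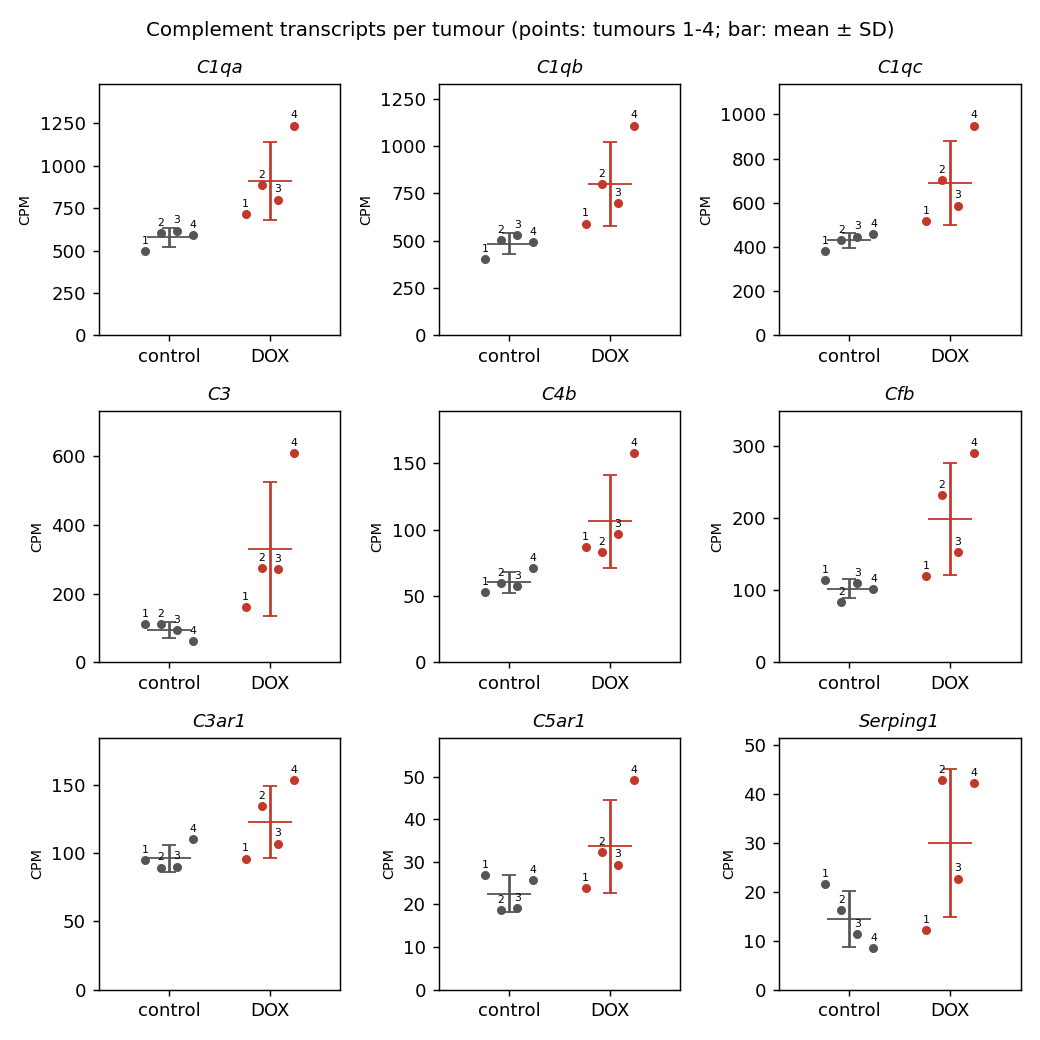
CPM (vertical axes, from 0) of the 9 complement genes in control (grey) and DOX (red) tumours; points are tumours 1 to 4, numbered, and bars are means with SD. The groups do not overlap for C1qa, C1qb, C1qc, C3, C4b and Cfb, and DOX tumour 4 is the highest tumour for every gene but Serping1.

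The C1q subunit genes were the most abundant members and were about 1.6 times as high in DOX tumours. C1qa, which encodes the A chain, stood at 498, 603, 618 and 589 CPM in control tumours 1 to 4 and at 713, 884, 800.0 and 1237 CPM in DOX tumours 1 to 4. All DOX tumours lay above all controls, and DOX tumour 4 stood well above the others. In edgeR's test its log2 fold change was 0.65 ± 0.16 (SE), a 1.57-fold difference, with an adjusted p of 0.387. C1qb, for the B chain, stood at 403, 505, 530.2 and 493 CPM in controls and at 590.3, 799.9, 699 and 1107 CPM in DOX tumours. C1qc, for the C chain, stood at 381, 432, 446 and 458 CPM in controls and at 518, 703, 587 and 949 CPM in DOX tumours. The order of the tumours was nearly the same for the 3 genes: control tumour 1 was lowest, DOX tumour 1 lowest of its group and DOX tumour 4 highest in each. The edgeR log2 fold changes of C1qb and C1qc were 0.73 ± 0.18 and 0.68 ± 0.17 (SE), each with an adjusted p of 0.387.

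Levels of different genes were compared as FPKM, which are scaled to gene length. In controls C1qa stood at 559 ± 62.9, C1qb at 458 ± 60.9 and C1qc at 425 ± 40.5 FPKM (SD, n = 4 each), and neighbours in this order overlapped within their SD. Within each tumour, though, C1qa exceeded C1qb by 1.13 to 1.26 times and C1qb exceeded C1qc by 1.01 to 1.14 times, in 8 of 8 tumours. The proportions of the subunit transcripts varied less between tumours than their levels did. The 3 C1q genes together held 90.6% to 93.3% of the summed FPKM of the members in controls and 89.3% to 92.7% in DOX tumours. After C1q the order in controls was Cfb (39.8 ± 4.92 FPKM), C3 (23.1 ± 5.89), C3ar1 (22.6 ± 2.20), C4b (11.3 ± 1.53), C5ar1 (9.21 ± 1.597) and Serping1 (8.08 ± 3.09; SD, n = 4 each). C3 and C3ar1, C4b and C5ar1, and C5ar1 and Serping1 did not differ beyond their SD. In DOX tumours C3 (82.5 ± 50.6 FPKM) came before Cfb (76.9 ± 28.2) and Serping1 (16.9 ± 8.36) before C5ar1 (13.7 ± 4.12; SD, n = 4 each), with overlapping SD in both pairs.

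Markers of macrophages mostly had higher means in the DOX tumours too. Of 12 macrophage genes tested, 11 had the higher mean in DOX tumours and 1 the lower, and 0 passed edgeR's adjusted threshold (DESeq2 called 1). Unadjusted, 6 of 12 had an edgeR p below 0.05 on the higher side, where 7.65% of all tested genes did, and the median log2 fold change of the list was 0.45. Their summed level was 1357 to 1887 CPM in controls and 1956 to 4331 CPM in DOX tumours, and Cd163, a marker of a subset of macrophages, was below 1 CPM in every tumour. Csf1r, the receptor for the macrophage growth factor CSF1, stood at 208, 224, 229 and 205 CPM in controls and at 245, 306, 273 and 375 CPM in DOX tumours. The part of macrophage number in the C1q difference was not tested, but C1qa was set against Csf1r within each tumour. The C1qa to Csf1r ratio of CPM was 2.39, 2.69, 2.70 and 2.88 in controls and 2.92, 2.90, 2.93 and 3.29 in DOX tumours, without overlap but with a narrow gap. The mean log2 ratio was 1.41 ± 0.11 in controls and 1.59 ± 0.09 in DOX tumours (SD, n = 4 each), a difference of 0.18 ± 0.07 (SE). The exact two-sided permutation test over 70 allocations gave p = 0.0286, the smallest value 4 tumours against 4 allow. After adjustment over the 3 ratios tested it was 0.0571, so the ratio missed the threshold. At that smallest value, passing depended on the p of the other ratios, so the miss says little of this ratio by itself.

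C3, the component on which all pathways converge, showed the largest difference of the 9 genes. It stood at 112, 111, 94.1 and 62.8 CPM in control tumours 1 to 4 and at 160.1, 274, 271 and 608 CPM in DOX tumours 1 to 4. The lowest DOX tumour lay above the highest control, and DOX tumour 4 had more than the other DOX tumours by a wide margin. The means were 94.9 ± 22.9 CPM in controls and 328 ± 194 CPM under DOX (SD, n = 4 each). The edgeR log2 fold change was 1.79 ± 0.39 (SE), a 3.46-fold difference, with an adjusted p of 0.387 and rank 21 by p among all tested genes. It was 1.31 without DOX tumour 4 and 2.02 without DOX tumour 1.

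Cfb, for factor B, stood at 114, 83.7, 110.1 and 102 CPM in controls and at 119.9, 232, 153 and 291 CPM in DOX tumours. Here DOX tumour 1 exceeded the highest control only narrowly. The edgeR log2 fold change was 0.96 ± 0.26 (SE, adjusted p = 0.387). C4b, which encodes the C4 protein cleaved on the way to C3, stood at 52.7, 59.9, 57.4 and 71.1 CPM in controls and at 86.7, 83.2, 96.7 and 158 CPM in DOX tumours. It was the member whose lowest DOX value came from DOX tumour 2 and not from DOX tumour 1. Its edgeR log2 fold change was 0.81 ± 0.21 (SE, adjusted p = 0.387). Counts of C4b and C3ar1 were whole numbers in 0 of 8 libraries, so their reads may be divided with other genes, whereas the other 7 members had whole counts in all 8. The near-identical gene C4a stood at no more than 0.655 CPM in any tumour.

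Whether C3 differed more than its neighbours in the cascade was asked within each tumour. The C3 to C1qa ratio of CPM was 0.225, 0.184, 0.152 and 0.107 in controls and 0.224, 0.309, 0.338 and 0.492 in DOX tumours. DOX tumour 1 lay just below the highest control, and the other DOX tumours lay above all controls. The mean log2 ratio differed by 1.03 ± 0.33 (SE), with an exact two-sided permutation p of 0.0571 (0.0571 adjusted over 3 ratios). The C3 to Cfb ratio was 0.981, 1.32, 0.854 and 0.618 in controls and 1.34, 1.18, 1.77 and 2.09 in DOX tumours, and the groups overlapped at control tumour 2. Its log2 difference was 0.77 ± 0.30 (SE), with an exact permutation p of 0.0571 (0.0571 adjusted). A larger difference of C3 than of C1qa or Cfb therefore missed the threshold in these 8 tumours.

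**Figure D2:**
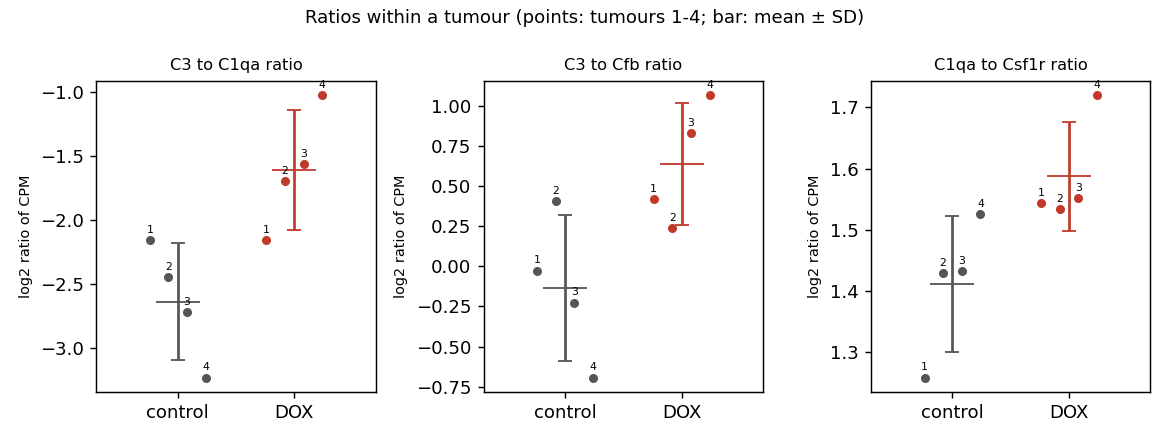
Log2 ratio of CPM within a tumour (vertical axes, not starting at 0) for C3 to C1qa, C3 to Cfb and C1qa to Csf1r in control (grey) and DOX (red) tumours; points are tumours 1 to 4 and bars are means with SD. Groups touch or overlap for both C3 ratios and are separate for C1qa to Csf1r, where the vertical scale is the narrowest.

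The receptor genes showed the smallest differences. C3ar1, the receptor for the C3 peptide, stood at 94.9, 89.3, 90.1 and 110.1 CPM in controls and at 96.0, 134, 107 and 154 CPM in DOX tumours. Only DOX tumours 2 and 4 lay above all controls. The edgeR log2 fold change was 0.35 ± 0.14 (SE, adjusted p = 0.408), and DESeq2 gave an adjusted p of 0.280. C5ar1, the receptor for the C5 peptide, which draws neutrophils and monocytes, stood at 26.8, 18.7, 19.04 and 25.6 CPM in controls and at 23.8, 32.2, 29.4 and 49.2 CPM in DOX tumours. DOX tumour 1 fell within the control range and the other 3 lay above it. Its edgeR log2 fold change was 0.58 ± 0.23 (SE, adjusted p = 0.401), and DESeq2 gave an adjusted p of 0.202. In FPKM, C3ar1 exceeded C5ar1 by 1.79 to 2.75 times, in 8 of 8 tumours. Of the neutrophil markers, S100a8, S100a9, Ly6g, Camp and Elane were below 1 CPM in every tumour, and another 3 genes of that list were tested. All 3 had the higher mean in DOX tumours, and 0 passed edgeR's adjusted threshold. An unadjusted edgeR p below 0.05 on the higher side was found for 1 of 3, where 7.65% of all tested genes had one. The summed neutrophil list was 35.1 to 42.3 CPM in controls and 40.7 to 92.5 CPM in DOX tumours.

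Serping1, the inhibitor, varied most among the controls. It stood at 21.6, 16.2, 11.4 and 8.52 CPM in control tumours 1 to 4 and at 12.2, 42.9, 22.7 and 42.2 CPM in DOX tumours 1 to 4. DOX tumours 2, 3 and 4 lay above all controls, but DOX tumour 3 did so narrowly and DOX tumour 1 lay inside the control range. The edgeR log2 fold change was 1.06 ± 0.43 (SE, adjusted p = 0.407), a 2.08-fold difference, and the SD was 5.73 CPM in controls and 15.1 CPM in DOX tumours (n = 4 each). DESeq2 gave an adjusted p of 0.332.

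The plot of levels relative to the control mean shows how the genes parted within the groups. Control tumour 1 was the lowest tumour for the 3 C1q genes and C4b, at -0.25 to -0.17 log2 units from the control mean. The same tumour was the highest control for Serping1 (0.67), C3 (0.27), C5ar1 (0.27) and Cfb (0.17). The list of 20 interferon-gamma response genes had its highest summed level in that tumour, 10831 CPM, where controls 2 to 4 had 4006 to 4784 CPM and the DOX group 4878 to 8848 CPM. Of those 20 genes, 19 had the higher mean in DOX tumours, where 6294 of all 13436 tested genes did. An unadjusted edgeR p below 0.05 on the higher side was found for 1 of 20, where 7.65% of all tested genes had one. In edgeR 0 of 20 passed the adjusted threshold (DESeq2 called 1). The list's part in the complement levels was not tested. In control tumour 4, C3 and Serping1 were lowest of all 8 tumours, at -0.56 and -0.67 log2 units, while C4b and C3ar1 were at the top of the control range.

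**Figure D3:**
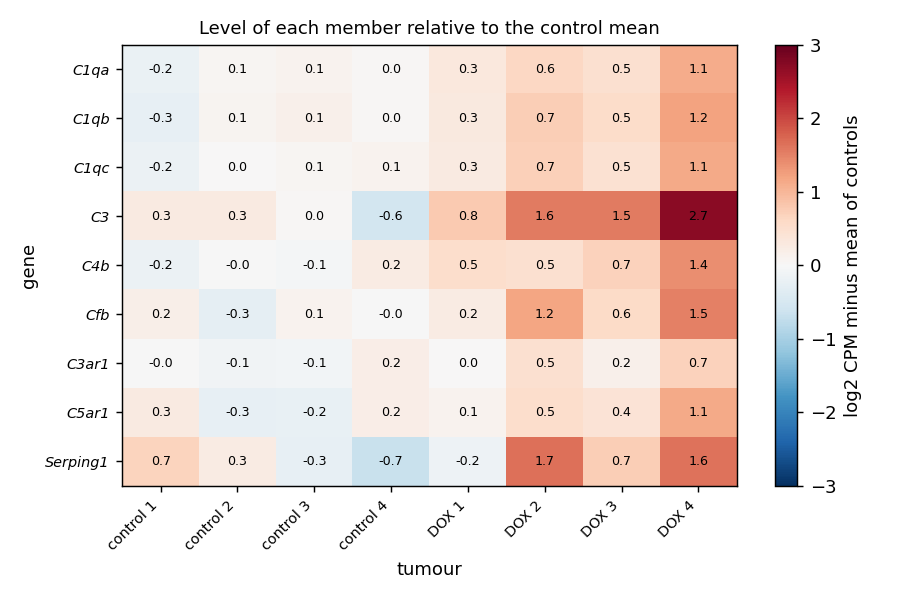
Log2 CPM of each member (rows) in each tumour (columns) minus the mean log2 CPM of the 4 controls; red is higher and blue lower, and cells print the value rounded to 1 decimal. C3 in DOX tumour 4 is the largest deviation at 2.72, and control tumour 1 is below the control mean for C1q and above it for Serping1.

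The members were compared with each other across the 8 tumours on log2 CPM, in 36 pairs. Because a shared group difference alone gives a high correlation, group means were removed, and p came from an exact permutation test over the 576 orders within groups. With group means removed all 36 correlations were positive. Unadjusted p was below 0.05 for 8, and 0 of 36 passed adjustment over the pairs. The smallest p that 576 orders allow, 0.00174, becomes 0.0625 over 36 pairs unless other pairs also have a very low p. No pair could therefore pass by itself, however strong. The 2 tumours farthest from the median of the first gene, with group means removed, were then left out. Group means were not removed again. Of the 36 correlations 17 were then negative, so the common sign was not kept without those tumours. Leaving out the extremes of a gene also narrows its range, which by itself can lower r. The lowest was -0.61, for C3 and C3ar1. Over all 8 tumours the highest correlation was that of C1qa and C1qb, with Pearson's r = 0.99 (exact p = 0.00174, 0.0625 adjusted) and Spearman's rho = 0.98 (exact p = 0.00174, 0.0625 adjusted), where 0.00174 is the smallest p attained. Without the 2 tumours farthest from the median of C1qa, chosen in the same way, r was 0.99. C3ar1 and C5ar1 had r = 0.88 (exact p = 0.00868, 0.0781 adjusted) and rho = 0.86 (exact p = 0.0104, 0.188 adjusted), and r was 0.64 without the 2 farthest tumours. C3 and Serping1 had r = 0.82 (exact p = 0.0365, 0.188 adjusted) and rho = 0.69 (exact p = 0.0990, 0.341 adjusted), and r was 0.70 without the 2 farthest tumours. C1qa and C3 had r = 0.75 (exact p = 0.125, 0.217 adjusted) and rho = 0.55 (exact p = 0.189, 0.399 adjusted). Their r was -0.23 without the 2 farthest tumours, so its sign was not kept without them. C4b and Serping1 had the lowest, with r = 0.16 (exact p = 0.826, 0.826 adjusted) and rho = -0.19 (exact p = 0.733, 0.776 adjusted), and r was -0.06 without the 2 farthest.

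Among 10909 other genes with a mean log2 CPM above 2, those most like C3 by Pearson's r of log2 CPM over the 8 tumours were Nod1 (0.99), Ubl3 (0.99), Agpat1 (0.98) and Tifab (0.98). Those most like C1qa were Degs2 (0.99), Arap1 (0.99), Unc93b1 (0.99) and Mertk (0.99). Mertk encodes a macrophage receptor for dying cells and Nod1 a sensor of bacterial cell walls. The 8 tumours share the group difference and the position of DOX tumour 4, and r was above 0.9 for 283 genes with C3 and for 408 with C1qa.

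Beyond the 9 members, 51 other complement genes were listed and 25 were tested. None passed the adjusted threshold in edgeR. Unadjusted, 7 of the 25 had an edgeR p below 0.05 on the higher side (7.65% of all tested genes) and 2 on the lower side (3.95% of all tested genes), and the median log2 fold change was 0.22, against -0.01 over all tested genes. Among genes that start the pathways, C2, the neighbour of Cfb, was low, with a mean of 1.64 ± 0.394 CPM in controls and 3.12 ± 1.10 CPM under DOX (SD, n = 4 each). Its edgeR log2 fold change of 0.93 ± 0.30 (SE, adjusted p = 0.387) was close to that of Cfb. Masp1, a protease of the lectin pathway, was at 57.5 ± 12.3 CPM in controls and 39.1 ± 3.46 CPM under DOX (SD, n = 4 each), and here the DOX tumours lay below all controls. Its edgeR log2 fold change was -0.56 ± 0.14 (SE, adjusted p = 0.387), and it was the 1 gene of the list called by DESeq2, with an adjusted p of 0.0487. Masp1 had whole counts in 0 of 8 libraries, so its level may hold shared reads. C1ra, C1s1 and the scavenger receptor gene Colec12 were also tested, and the groups overlapped in each. Their edgeR log2 fold changes were 0.34 ± 0.24, 0.22 ± 0.55 and 1.06 ± 0.45 (SE, adjusted p = 0.618, 0.905 and 0.414). Mbl1, Fcna, Fcnb, Colec10, Colec11, Masp2, C1s2 and Ptx3 were below 1 CPM in every tumour.

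On the alternative pathway Cfp encodes properdin, which stabilises the C3-cleaving enzyme. It stood at 50.5, 33.3, 28.1 and 37.8 CPM in controls and at 47.4, 72.3, 44.7 and 140.1 CPM in DOX tumours. The groups overlapped, and its edgeR log2 fold change was 1.02 ± 0.37 (SE, adjusted p = 0.389). Cfd, for factor D, was below 1 CPM throughout, as were the adipocyte markers Adipoq, Plin1, Cidec and Pck1. Another 2 adipocyte genes were tested, 1 with the higher and 1 with the lower mean in DOX tumours. The adipocyte list summed to 9.34 to 13.9 CPM in controls and 8.98 to 13.7 CPM in DOX tumours. Of the terminal components, Hc, which encodes C5, had an edgeR log2 fold change of -0.05 ± 0.13 and C8g of -0.13 ± 0.24 (SE, adjusted p = 0.906 and 0.854). C6, C8a and C9 were below 1 CPM in every tumour.

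Among soluble regulators, Clu, which encodes clusterin, an inhibitor of the lytic complex, had an edgeR log2 fold change of -0.38 ± 0.15 (SE, adjusted p = 0.398). Cd59a, which encodes a membrane inhibitor of lysis, had 0.82 ± 0.25 (SE, adjusted p = 0.387) at 1.41 ± 0.140 CPM in controls and 2.50 ± 0.826 CPM under DOX (SD, n = 4 each), with whole counts in 0 of 8 libraries. Cd46, a membrane cofactor for C3 breakdown, had -0.28 ± 0.19 (SE, adjusted p = 0.590). Of the receptors for C3 fragments, Itgb2, the shared beta chain of the leukocyte integrins, had 0.82 ± 0.26 and Itgax, an alpha chain, 0.78 ± 0.24 (SE, edgeR adjusted p = 0.387 each). In both the DOX tumours lay above all controls, but only narrowly. The lowest DOX and highest control tumours had 124.77 and 123.55 CPM of Itgb2, and 70.62 and 70.31 CPM of Itgax. Both genes were named for the smallest p of the 9 tested receptor genes. Itgam, another alpha chain, had 0.22 ± 0.23 (SE, edgeR adjusted p = 0.742), and its groups overlapped. The macrophage receptor gene Vsig4 and the B cell receptor gene Cr2 were below 1 CPM in every tumour.

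**Figure D4:**
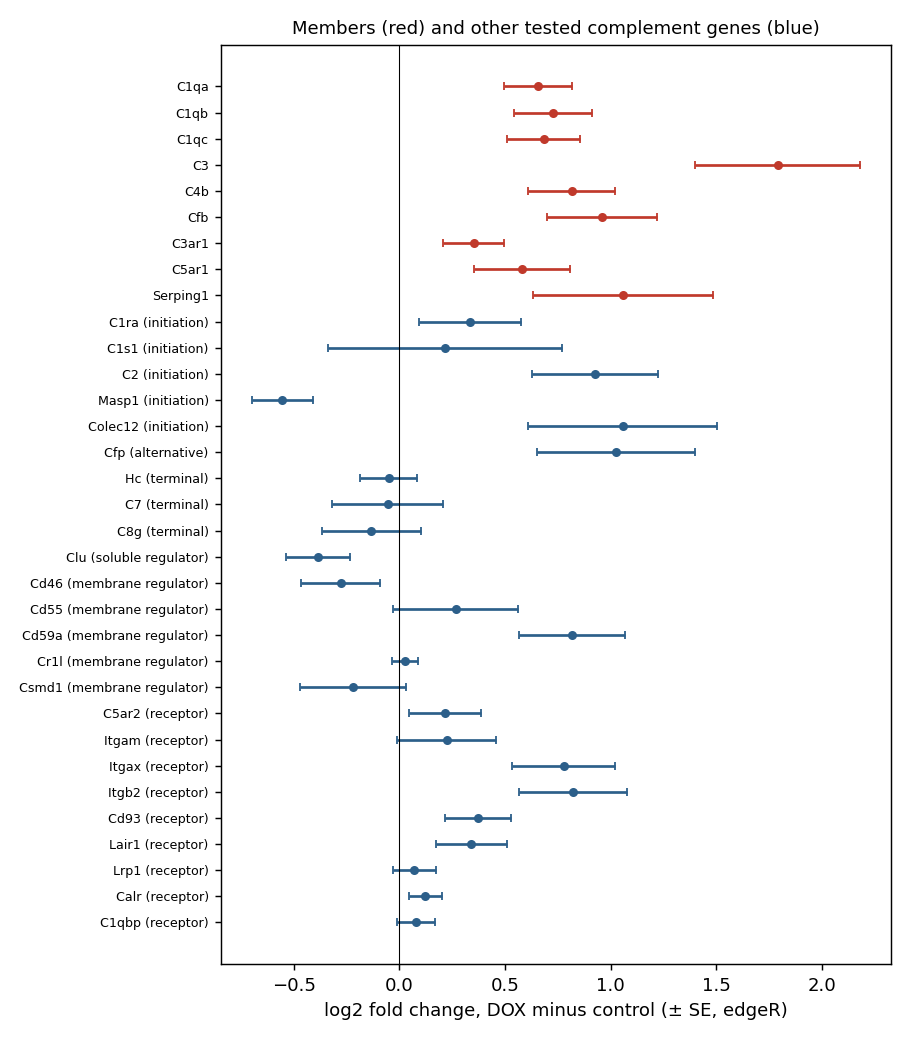
EdgeR log2 fold change, DOX minus control (horizontal axis), with SE bars for the 9 members (red) and 24 of the 25 other tested complement genes (blue), labelled by role. C3 is farthest right at 1.79, all 9 members lie to the right of 0, and Masp1 is farthest left at -0.56.

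Other cells and tissues were followed by marker lists. The T cell list was 29.6 to 74.1 CPM in controls and 75.1 to 244 CPM in DOX tumours, with 9 of 9 tested genes at an unadjusted edgeR p below 0.05 on the higher side. Skeletal muscle genes summed to 2.51 to 56.6 CPM in controls and 19.5 to 205 CPM in DOX tumours, and 6 of 9 tested had an unadjusted edgeR p below 0.05 on the higher side. Of all tested genes 7.65% did so, and 0 genes of either list passed edgeR's adjusted threshold (DESeq2 called 3 of the T cell list and 0 of the muscle list). Fibroblast genes summed to 4314 to 8065 CPM in controls and 4173 to 6725 CPM in DOX tumours, and endothelial genes to 71.3 to 127 and 77.5 to 123 CPM. In both lists 0 of 10 tested had an unadjusted edgeR p below 0.05 in either direction. The hepatocyte markers Apoa1, Ttr and Serpina1a were below 1 CPM in every tumour, but 3 other genes of that list were tested. All 3 had the higher mean in DOX tumours, 0 of them at an unadjusted edgeR p below 0.05. The list summed to 47.0 to 94.8 CPM in controls and 76.7 to 116 CPM in DOX tumours. Mast cell genes summed to 5.41 to 45.1 CPM in controls and 22.5 to 53.4 CPM in DOX tumours, and keratinocyte genes to 15.1 to 29.5 and 15.7 to 19.5 CPM. The part of T cells and of muscle tissue in the complement values was not tested.

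Within the DOX group the complement levels were not ordered like the level of Cxcl14. DOX tumour 4 had the lowest Cxcl14 of that group, at 15.8 CPM, and the highest level of 8 of 9 members. DOX tumour 1 had 30.1 CPM of Cxcl14 and was the lowest DOX tumour for 8 of 9 members. DOX tumour 2 had nearly the same Cxcl14, at 30.2 CPM, but lay above DOX tumour 1 in every member except C4b. It was the highest tumour for Serping1, so tumours of like Cxcl14 level differed in complement. With 4 tumours no correlation was computed. Leaving out DOX tumour 4 left 6 of 9 members at an unadjusted edgeR p below 0.05, against 4.28% of all tested genes on the higher side. The median log2 fold change over the members was then 0.53. The count was also 6 of 9 without control tumour 2 (6.71% of all tested genes), control tumour 3 (6.2%) or DOX tumour 2 (5.49%). Without any other tumour it was 8 or 9 (6.58% to 10.2%).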

How the data were processed

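The submitters' processing notes list HISAT, Bowtie2 and the build GRCm38.p6. The counting tool, annotation and strand setting were not given there. The main table, as the authors deposited it, has read counts for 18251 genes. Only 64.9% of its values are whole within 0.005, so the deposited values were taken to be expected counts and were rounded. A companion table from the authors holds FPKM, normalized for length and depth, per the file headers. In a further table the names of 8 columns could not be tied to a sample, and it was not used. Every pair of libraries differed by more than sampling noise (chi-square per degree of freedom 5.26 to 71.8).

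Genes were kept by filterByExpr and fitted with edgeR 4.0.16 in R 4.3.3 (TMM, quasi-likelihood F test with robust dispersion, Benjamini-Hochberg over 13436 genes at 0.05). Each SE came from the log2 fold change and the root of its F statistic. CPM are TMM-scaled. Log2 CPM for correlations used a prior count of 2. DESeq2 1.42.0, limma-voom (limma 3.58.1), other scalings, no filter, FPKM with pseudocounts of 1 and 0.1, and omission of each tumour were alternatives. The fits and the permutation test were tested on simulated data. The 9 members and all gene lists were chosen with earlier results of these data known. Named genes are the members, the 2 other complement genes of each role with the smallest edgeR p, the 4 genes most like C3 and C1qa (unnamed gene models left out), and Cxcl14. A gene that this rule names is not reported here. Marker genes below 1 CPM, Csf1r and further genes in lists are named for description. Group means were tested by exact permutation for the 3 ratios. Promoter windows are from RefSeq (GRCm38.p6), and 32541 distinct windows gave the motif shares.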

Additional observations from a re-analysis of the deposited data

Results flagged for a closer look

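Across 24 sets of 4 tumours (the 9 members and the 3 ratios in each group), 1 value stood apart from the rest of its group by Dixon's criterion at the 95% level, and chance flags about 1 in 20 such sets. The log2 ratio of C1qa to Csf1r was 1.72 in DOX tumour 4, against 1.53 to 1.55 in the other DOX tumours. The gap to the nearest of them was 0.905 of the range of the group.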

How the results depend on the processing

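The number of members past an adjusted p of 0.05 was 0 with edgeR and remained 0 under limma-voom, other scalings, no filter, FPKM and every omission of a tumour, but it was 6 with DESeq2. With a tumour left out, a step added after seeing the data, DESeq2 called 0 to 9 members and 12 to 723 genes. Over all genes the count was 1 with edgeR, 82 with DESeq2 (62 higher and 20 lower) and 1 to 2 when a tumour was left out, with Cxcl14 as the added gene without DOX tumour 4. All 144 refits of single members kept the higher mean in DOX tumours. Their adjusted p ranged from 0.0228 to 0.870, and omission of DOX tumour 4 gave the smallest log2 fold change in 8 of 9 members. With the replicate number as a block, 0 members and 1 gene passed. Same-numbered tumours did not deviate together (r from -0.02 to 0.09, where differently numbered pairs had -0.20 to 0.22). No pairing by number was seen, but so few tumours cannot exclude one. The C1qa to Csf1r difference stayed at 0.18 with sign flips of same-numbered pairs, a test that cannot reach 0.05 with 4 pairs (exact p = 0.125). When each tumour was left out it was 0.12 to 0.21, with exact p from 0.0286 to 0.0571. The C3 to C1qa difference was 0.83 to 1.21 (exact p 0.0286 to 0.0857), and the C3 to Cfb difference 0.59 to 0.95 (exact p 0.0286 to 0.114). No alternative depth was tried, and genes near 1 CPM, such as C2 and Cd59a, rest on few counts per library.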
